A study of Mus musculus with 2 samples.

Results

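The genes of the vascular endothelial growth factor (VEGF) and angiopoietin systems were followed in periodontal ligament during tooth movement: 5 VEGF family ligands (Vegfa, Vegfb, Vegfc, Vegfd and Pgf), the VEGF receptors Kdr and Flt1, the angiopoietins Angpt1 and Angpt2, and the angiopoietin receptor Tek. They were chosen by symbol, and all 10 were found among the 32285 genes of the count matrices, each as 1 row. Periodontal ligament is the connective tissue that holds a tooth root in its bony socket. Both libraries came from male C57BL/6J mice aged 8 weeks. For the OTM day 6 library (orthodontic tooth movement), a 10-g force drew the upper left first molar mesially over 6 days, and the Control library came from the unloaded right side. Roots and sockets of 5 mice per library gave the tissue, which was pooled and digested with collagenase and trypsin before 10x Genomics 3' sequencing. With 1 pooled library per group no spread between animals could be measured: every difference below is one between these 2 libraries, and no p-value was computed.

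VEGF ligands are secreted and act on receptor tyrosine kinases that are carried mainly by endothelial cells, the lining of blood vessels. Kdr (VEGF receptor 2) carries the main growth signal of Vegfa, while Flt1 (VEGF receptor 1) binds Vegfa, Vegfb and Pgf and limits what reaches Kdr. Angpt1 activates the endothelial receptor Tek (Tie2) and steadies vessels, and Angpt2 competes with it and is known for loosening vessels before sprouting.

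The OTM day 6 library held 1539 barcodes and 36010801 UMIs (unique molecular identifiers, each counting 1 captured RNA molecule), and the Control library 369 barcodes and 5723299 UMIs. After a filter on detected genes and mitochondrial content, 1412 OTM cells (median 19583 UMIs) and 348 Control cells (median 14877 UMIs) remained, with 0 barcodes shared between the libraries. Clusters were found without the 10 genes and named from marker lists that left them out, with "-like" to show that the names rest on transcripts. Endothelial-like cells were 204 of 1412 OTM cells (14.4%, 12.7 to 16.4) and 14 of 348 Control cells (4.02%, 2.22 to 6.66), 10.4 percentage points more. With each library clustered alone 187 OTM and 68 Control cells were called endothelial-like, and the difference turned to -6.30 points. Those 68 Control cells held 386 Flt1 UMIs, beside 369 in the 14 Control cells of the joint clustering. The 15 endothelial markers summed to 8875 CPM in OTM and 8756 CPM in Control endothelial-like cells. Stromal cells were 652 of 1412 OTM cells (46.2%) and 153 of 348 Control cells (44.0%), but the clusters behind them differed. An unnamed stromal cluster led by Pcp4, Mfap4, Angpt4 and Wif1 held 95 OTM and 87 Control cells. It scored highest for chondrocytes and next for fibroblasts, with no marker of either among its 10 leading genes. A fibroblast-like cluster led by Aspn and Postn held 277 OTM and 25 Control cells, a second one led by Ccn5 and Mmp13 held 109 OTM and 0 Control cells, and a cycling stromal cluster held 27 OTM and 0 Control cells. Levels are given in CPM, counts-per-million of all UMIs in a class, with exact 95% Poisson intervals, and shares of cells with exact Clopper-Pearson intervals. Ratios are log2 of OTM over Control with the exact 95% interval of a conditional binomial. Where nothing was counted, the limit given is 3 UMIs or 3 cells with a UMI over the total, a floor used in place of an interval. All of these cover counting error only, not variation between mice or between the cells of a class.

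The promoters of the receptors are shown because Flt1, Kdr and Tek were found nearly in the same cells, and that of Vegfa because this ligand was found in every OTM class of the map of levels. Each sequence is the 250 bases before the RefSeq transcript start (build GRCm38.p6), read 5′ to 3′ on the strand of the gene: chr5:147726012-147726261 (minus strand) for Flt1, chr5:75978456-75978705 (minus) for Kdr, chr4:94739039-94739288 (plus) for Tek and chr17:46032378-46032627 (minus) for Vegfa. Capitals mark GGAA or its reverse complement TTCC, the core bound by ETS transcription factors, in the first 3, and GGGCGG, the GC box bound by Sp1, or its reverse complement in Vegfa. The RefSeq promoter table held 8 of the 10 genes.
Flt1: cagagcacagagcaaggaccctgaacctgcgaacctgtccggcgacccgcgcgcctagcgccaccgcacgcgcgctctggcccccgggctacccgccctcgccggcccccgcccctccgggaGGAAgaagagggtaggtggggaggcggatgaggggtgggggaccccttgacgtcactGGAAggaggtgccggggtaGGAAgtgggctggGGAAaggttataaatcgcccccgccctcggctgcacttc
Kdr: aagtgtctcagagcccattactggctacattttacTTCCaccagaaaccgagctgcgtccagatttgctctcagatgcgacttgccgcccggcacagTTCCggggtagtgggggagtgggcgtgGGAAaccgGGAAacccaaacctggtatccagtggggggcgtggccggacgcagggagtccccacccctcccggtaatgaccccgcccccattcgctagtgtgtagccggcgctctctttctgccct
Tek: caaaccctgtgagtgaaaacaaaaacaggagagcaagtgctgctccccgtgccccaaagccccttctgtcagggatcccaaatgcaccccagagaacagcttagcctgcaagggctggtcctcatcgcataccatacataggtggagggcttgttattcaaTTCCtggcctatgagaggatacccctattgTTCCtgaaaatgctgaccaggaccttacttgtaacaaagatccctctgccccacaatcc
Vegfa: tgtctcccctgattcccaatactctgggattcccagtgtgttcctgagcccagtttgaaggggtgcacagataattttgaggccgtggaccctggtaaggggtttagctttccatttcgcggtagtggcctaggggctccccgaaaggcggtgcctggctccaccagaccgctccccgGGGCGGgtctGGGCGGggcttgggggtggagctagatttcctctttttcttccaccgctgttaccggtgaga
On both strands, GGAA was found 4 times before Flt1, 4 times before Kdr and 2 times before Tek. Before Vegfa it was found 6 times, not marked above, so its count did not set the receptors apart from this ligand. It was present in 93.4% of 32851 promoter windows of this length, with a median of 3 matches. GGGCGG was found 2 times before Vegfa, 3 times before Flt1, 2 times before Kdr and 0 times before Tek, and was present in 32.7% of the windows. No base of these windows belonged to matches of both motifs. A match of letters is a description of the window, not a measured binding site.

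Flt1, Kdr and Tek marked the endothelial-like cells in both libraries. Flt1 lies at chr5:147561604-147726011, Kdr at chr5:75932827-75978458 and Tek at chr4:94739289-94874976 (GRCm38). Endothelial-like cells held 6915 of 7463 Flt1 UMIs in the OTM library (92.7%) and 369 of 403 in the Control library (91.6%). For Kdr they held 1832 of 1953 UMIs in OTM cells (93.8%) and 137 of 154 in Control cells (89.0%). For Tek they held 1620 of 1698 (95.4%) and 115 of 131 (87.8%). All 3 receptors were found together in 183 of 204 OTM endothelial-like cells (89.7%, 84.7 to 93.5) and in 11 of 14 Control ones (78.6%, 49.2 to 95.3). Epithelial-like cells, which should lack these receptors, had a Kdr UMI in 0 of 126 OTM cells and 0 of 20 Control cells, floors of 2.38% and 15% of cells with a UMI, at median depths of 34944 and 14009 UMIs against 21645 and 17962 in endothelial-like cells. Flt1 was seen in 6 of 126 OTM (4.76%) and 0 of 20 Control epithelial-like cells, and Tek in 2 of 126 (1.59%) and 0 of 20.

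**Figure D1:**
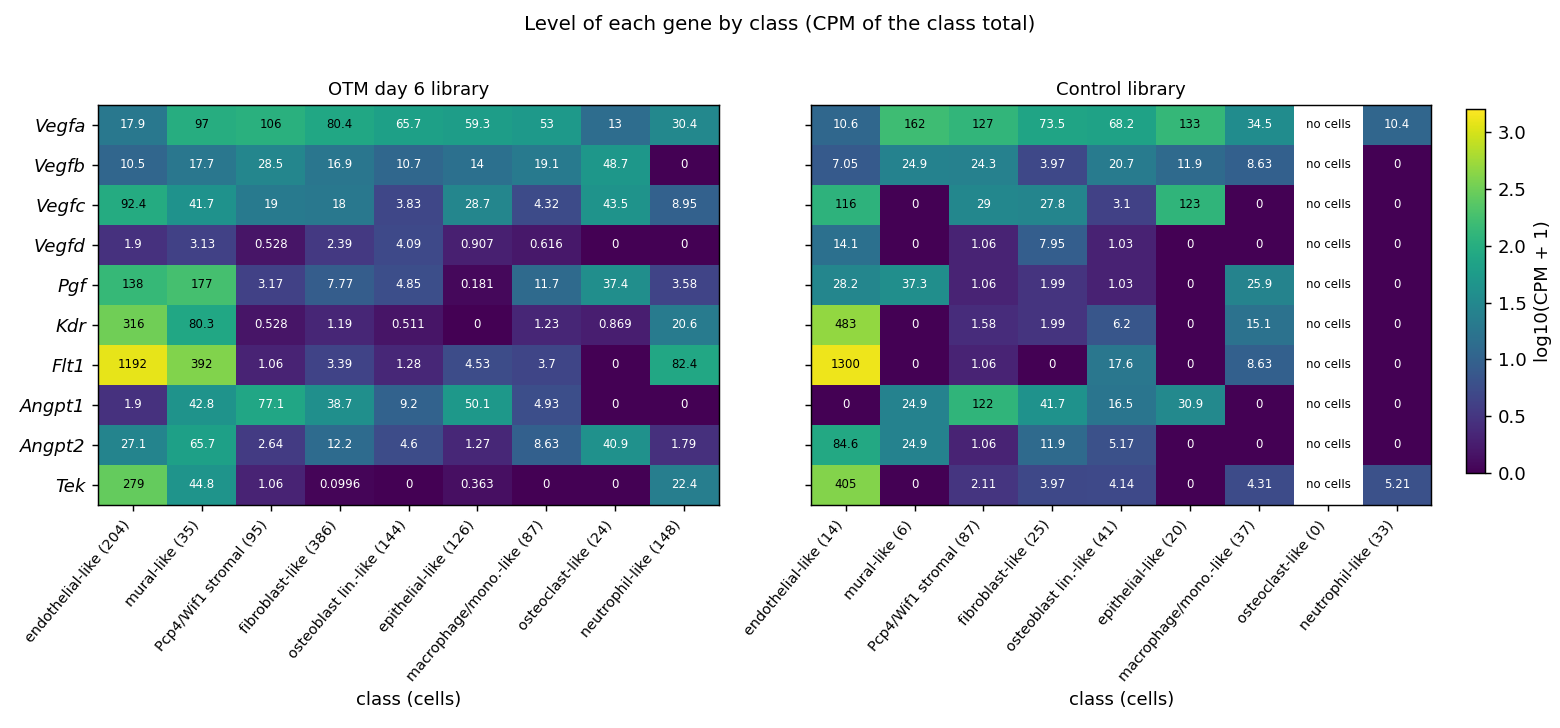
Level of each gene (rows) in each class (columns, number of cells in brackets) as CPM of the class total, on a log10 colour scale, for the OTM day 6 library (left) and the Control library (right). Flt1, Kdr and Tek stand highest in endothelial-like cells of both libraries (Flt1 1192 and 1300 CPM), while Vegfa lies at 50 CPM or more in 6 of the non-endothelial OTM classes shown.

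Within the endothelial-like cells Kdr and Tek were lower in the OTM library, by less than 2-fold, and the interval of the Flt1 ratio held 0. Flt1 was at 1192 CPM in OTM cells (1164 to 1220) and 1300 CPM in Control cells (1171 to 1440), a log2 ratio of -0.13 (-0.28 to 0.03). Across single cells, Flt1 ran from 0 over a median of 1032 to 5146 CPM in the 204 OTM cells, and from 0 over 1144 to 3114 CPM in the 14 Control cells, so the ranges overlapped throughout. Kdr was at 316 CPM in OTM cells (301 to 330.5) and 483 CPM in Control cells (405 to 571), a log2 ratio of -0.61 (-0.86 to -0.35). The per-cell medians of Kdr were 271.7 CPM in OTM cells and 276.1 CPM in Control cells, and 47 of the 137 Control UMIs came from 1 cell. Tek was at 279 CPM in OTM cells (266 to 293) and 405 CPM in Control cells (335 to 486), a log2 ratio of -0.54 (-0.81 to -0.25), with per-cell medians of 251.6 and 343.8 CPM. Without the cell with the most UMIs of the gene in each library, a choice made after seeing the data, the intervals of Kdr (-0.51 to 0.11) and Tek (-0.54 to 0.13) held 0. With each library clustered alone the log2 ratios of Flt1, Kdr and Tek were 2.18, 1.94 and 1.83, with 68 Control cells in the class. Those 68 cells held 386 Flt1, 121 Kdr and 112 Tek UMIs, beside 369, 137 and 115 in the 14 Control cells of the joint clustering. Thinned to 1500 UMIs, 155 of 201 OTM cells (77.1%) and 9 of 14 Control cells (64.3%) kept a Flt1 UMI, 40.3% and 42.9% a Kdr UMI, and 31.3% and 57.1% a Tek UMI. Before thinning the shares were 97.5% and 92.9% for Flt1, 95.1% and 92.9% for Kdr, and 92.2% and 92.9% for Tek.

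**Figure D2:**
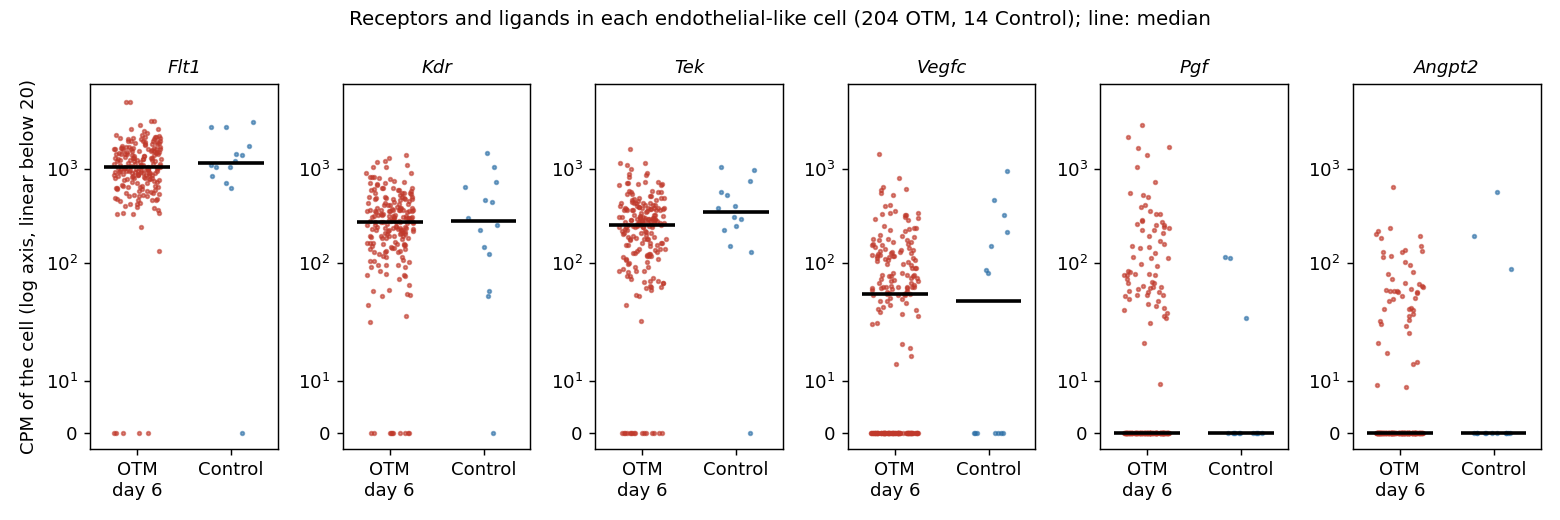
CPM in each endothelial-like cell (points) of the OTM day 6 library (204 cells, left in each panel) and the Control library (14 cells, right), on an axis that is logarithmic above 20 CPM and linear below; the line is the median. The receptors Flt1, Kdr and Tek overlap between libraries, Pgf reaches 2939 CPM in an OTM cell and at most 115.0 CPM in a Control cell, and the highest of the 3 Control cells with Angpt2 is at 566 CPM.

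Across the cluster sums of both libraries (29 points with at least 10 cells and 50000 UMIs), the genes most like each receptor were other endothelial genes. By Pearson's r of log2(CPM + 10), Flt1 ran closest to Ptprb, the endothelial phosphatase that acts on Tek (r = 0.98), and to Tie1 (0.98) and Cdh5 (0.98). Kdr ran closest to Tie1 (0.97), Mmrn2 (0.97) and Esam (0.97), and Tek to Robo4 (0.97), Tie1 (0.97) and Mmrn2 (0.95). All of these but Ptprb were among the 15 markers that named the class. The points share libraries and depth, and r here is a description.

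The Flt1 and Kdr UMIs of mural-like and neutrophil-like cells lay in few cells. Mural-like cells, the pericytes and smooth muscle cells around vessels, held 376 Flt1 UMIs in 35 OTM cells and 0 in 6 Control cells. Of the 376, 373 lay in the 16 OTM cells that also carried UMIs of the endothelial junction genes Pecam1 or Cdh5, a split chosen after the values were seen, and 3 in the 19 cells without them. For Kdr the same split gave 77 and 0 UMIs. Neutrophil-like cells held 92 Flt1 UMIs in 148 OTM cells and 0 in 33 Control cells, and all 92 came from 3 cells with Pecam1 or Cdh5 UMIs. The 15 endothelial markers summed to 1966 CPM in OTM and 323 CPM in Control mural-like cells, and to 627 CPM in OTM and 15.6 CPM in Control neutrophil-like cells. Their part in these counts was not tested. In OTM stromal cells Flt1 was more scattered. It had 14 UMIs in 7 of 114 cells with Pecam1 or Cdh5 UMIs, and 30 UMIs in 17 of 538 cells without them. In the Control library, 17 of the 19 stromal Flt1 UMIs came from 1 cell.

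Pgf, a ligand of Flt1 (chr12:85166635-85177790), was the member that differed most over all cells. It had 1184 UMIs in the OTM library (33.3 CPM) and 27 in the Control library (4.83 CPM), a log2 ratio of 2.79 (2.24 to 3.40). Over all cells, 3 of the 10 genes were at least 2-fold higher (Pgf, Flt1 and Tek) and 0 were at least 2-fold lower, where 5.68% and 9.52% of all 15781 measured genes were. Flt1 had a log2 ratio of 1.54 (1.40 to 1.69), Tek of 1.03 (0.77 to 1.30) and Kdr of 1.00 (0.76 to 1.24). Within the endothelial-like cells none of these 3 receptors had a ratio above 0 in the joint clustering, whose share of cells was 14.4% in the OTM library and 4.02% in the Control library.

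In endothelial-like cells Pgf was at 138 CPM in the OTM library (129 to 148) and 28.2 CPM in the Control library (12.2 to 55.5), a log2 ratio of 2.30 (1.31 to 3.51). The counts behind it were 803 UMIs in 73 of 204 OTM cells and 8 UMIs in 3 of 14 Control cells. The OTM cells were uneven: 3 of them held 41.0% of the UMIs, and the median cell had 0. Of 6 members measured in this class (genes for which equal CPM would give 5 or more expected UMIs in both libraries), 1 was at least 2-fold higher (Pgf) and 1 at least 2-fold lower (Angpt2), where 7.41% and 6.06% of all 6865 measured genes were. The median log2 ratio of the 6 was -0.43, beside 0.01 over all measured genes. Mural-like cells had Pgf at 177 CPM in the OTM library (170 UMIs) and 37.3 CPM in the Control library (3 UMIs), a log2 ratio of 2.25 (0.68 to 4.54). Fibroblast markers summed to 15884 CPM in OTM and 1268 CPM in Control mural-like cells, and mural markers to 13682 and 23955 CPM. The part of fibroblast transcripts in mural-like levels, here and below, was not tested. In the 19 OTM mural-like cells without Pecam1 or Cdh5 UMIs, Pgf stood at 95.4 CPM (31 UMIs in 7 cells). At least 2-fold higher in mural-like cells were 3 of 5 measured members (Pgf, Kdr and Flt1), where 21.1% of 3050 genes were, and 0 were lower, where 6.89% were. In the Control library, 12 of the 27 Pgf UMIs came from 1 macrophage or monocyte-like cell. Osteoclast-like cells, the bone-resorbing cells found only as 24 OTM cells, held 43 Pgf UMIs, 38 of them in 3 cells.

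The endothelial-like cells of the libraries were not of the same kinds. Clustered again, they fell into 6 subclusters, and subcluster 0, led by Fmo2 and Tll1, held 40 of 204 OTM cells and 12 of 14 Control cells. Subcluster 1 (Ccl2, Akr1b8) held 58 OTM and 1 Control cell, subcluster 2 (Col3a1, Gja4) 37 and 1, subcluster 3 (Tfpi2) 23 and 0, subcluster 4 (S100a8, Cd52) 32 and 0, and the cycling subcluster 5 (Top2a) 14 and 0. S100a8 was also among the neutrophil markers, and the part of leukocyte transcripts in subcluster 4 was not tested. In the OTM library Pgf was highest in subcluster 2 at 330.2 CPM (298 to 365), then in subcluster 1 at 191 CPM (171 to 214), and these intervals did not overlap. Subcluster 5 followed at 66.3 CPM, subcluster 3 at 37.9 CPM and subcluster 4 at 26.2 CPM, and subcluster 0 was lowest at 13.6 CPM (6.80 to 24.4); among these 4, each interval overlapped that of its neighbour in the order. Within subcluster 0 alone, Pgf had 11 UMIs in OTM cells (13.6 CPM) and 5 in Control cells (20.7 CPM), a log2 ratio of -0.61 (-2.25 to 1.27). Of these 5 Control UMIs, 4 came from 1 cell, which also held 51 UMIs of Prox1 and 0 of Flt1. Prox1 is known for lymphatic endothelium, so the Control side of this ratio rests mainly on a cell of another kind. The 5 doublets called among the OTM endothelial-like cells were all in subcluster 2, which also held Col1a1, a fibroblast collagen, at 1422 CPM. Without subcluster 2 the log2 ratio of Pgf was 1.57 (0.58 to 2.79), and without the called doublets 2.34 (1.35 to 3.55).

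**Figure D3:**
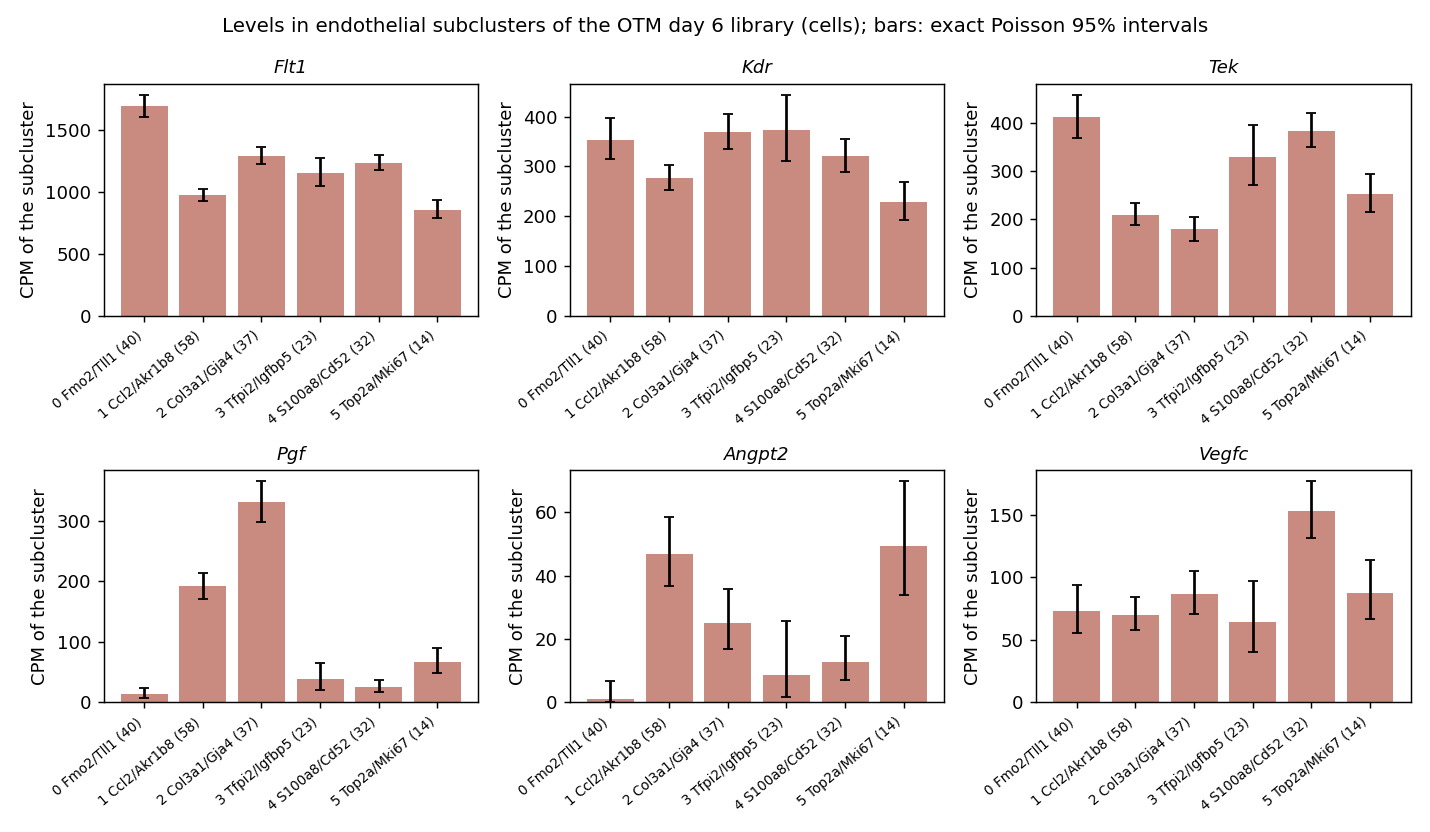
CPM of receptors and ligands in the 6 endothelial subclusters of the OTM day 6 library (number of cells in brackets), with exact 95% Poisson intervals. Pgf is highest in subclusters 2 and 1 (330.2 and 191 CPM) and lowest in subcluster 0 (13.6 CPM), while Flt1 is highest in subcluster 0 (1693 CPM).

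By the fold of the highest over the lowest level, the receptors spanned a smaller range among the OTM subclusters than Pgf and Angpt2 did. Flt1 ran from 857 CPM in the cycling subcluster 5 to 1693 CPM in subcluster 0, and Kdr from 228 CPM in subcluster 5 to 373 CPM in subcluster 3. Tek was highest in subclusters 0 (412 CPM) and 4 (384 CPM), whose intervals overlapped, and lowest in subcluster 2 (179 CPM). Within subcluster 0, Flt1 was at 1693 CPM in OTM cells and 1259 CPM in Control cells, a log2 ratio of 0.43 (0.25 to 0.61), the opposite side of 0 from the ratio over the whole class. Tek had a log2 ratio of -0.10 (-0.42 to 0.22) there and Kdr of -0.40 (-0.72 to -0.08). The Control cells of subcluster 0 were not alike. A single cell held 99 of their 304 Flt1 UMIs, 47 of their 113 Kdr UMIs and 0 of Tek. Another, with 51 UMIs of Prox1, held 0 of Flt1, 25 of Kdr and 10 of Tek. The ratios within subcluster 0 therefore also compare kinds of cells.

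Angpt2 (chr8:18690263-18741562) was lower in the OTM endothelial-like cells, at 27.1 CPM (157 UMIs in 51 of 204 cells), against 84.6 CPM (24 UMIs in 3 of 14 cells) in the Control library, a log2 ratio of -1.64 (-2.27 to -0.96). A single Control cell held 18 of the 24 UMIs. That cell also held 200 of the 210 Control UMIs of Esm1, a gene known for endothelial tip cells at the front of sprouts, together with 47 Kdr, 99 Flt1 and 0 Tek UMIs. Without the cell with the most Angpt2 UMIs in each library the log2 ratio was 0.0158 (-1.14 to 1.49), and with each library clustered alone 0.24 (-0.35 to 0.88). Among OTM subclusters Angpt2 was highest in the cycling subcluster 5 (49.3 CPM) and subcluster 1 (46.8 CPM), which also had Esm1 at 161 CPM, and it was 1.24 CPM in subcluster 0. Outside the endothelial-like class, Angpt2 stood at 65.7 CPM in OTM mural-like cells (50.5 to 84.1) and 24.9 CPM in Control ones (2 UMIs). Of the 63 OTM mural-like UMIs, 50 lay in the 16 cells with Pecam1 or Cdh5 UMIs. The 19 cells without them held 13, in 7 cells. OTM osteoclast-like cells had Angpt2 at 40.9 CPM (30.0 to 54.3), found in 14 of 24 cells. In stromal cells it was at 8.84 CPM in the OTM library (150 UMIs) and 3.86 CPM in the Control library (13 UMIs), a log2 ratio of 1.19 (0.38 to 2.14), but in the Aspn and Postn cluster it was at 14.5 CPM in OTM cells and 11.9 CPM in Control cells (log2 ratio 0.28, -0.90 to 1.76).

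Vegfa (chr17:46016993-46032369), the main VEGF ligand, came mostly from stromal cells: 1349 of 2084 UMIs in the OTM library (64.7%) and 343 of 446 in the Control library (76.9%). Its stromal level was 79.5 CPM in the OTM library (75.3 to 83.9) and 102 CPM in the Control library (91.4 to 113), a log2 ratio of -0.36 (-0.53 to -0.18). Single stromal cells ran from 0 over a median of 54.3 to 1606 CPM in the OTM library and from 0 over 72.8 to 483 CPM in the Control library, and the libraries overlapped. With classes set cell by cell from marker scores, which left 86 Control UMIs, the ratio turned to 0.20 (-0.12 to 0.53), and with a stricter filter on cells it was -0.16 (-0.36 to 0.04). Within each of the 3 clusters given next the ratio was nearer 0 than in all stromal cells. In the Pcp4 and Wif1 cluster Vegfa was at 106 CPM in OTM cells (91.5 to 121) and 127 CPM in Control cells (111 to 144), a log2 ratio of -0.26 (-0.54 to 0.01). In the Aspn and Postn cluster it was at 78.9 CPM in OTM cells and 73.5 CPM in Control cells (log2 ratio 0.10, -0.38 to 0.62). In the Bglap and Dmp1 osteoblast lineage-like cluster it was at 65.9 CPM in OTM cells and 69.1 CPM in Control cells (log2 ratio -0.07, -0.55 to 0.43). The Pcp4 and Wif1 cluster, where Vegfa was highest among stromal clusters of both libraries, held 9.60% of OTM Vegfa UMIs and 53.8% of Control ones.

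**Figure D4:**
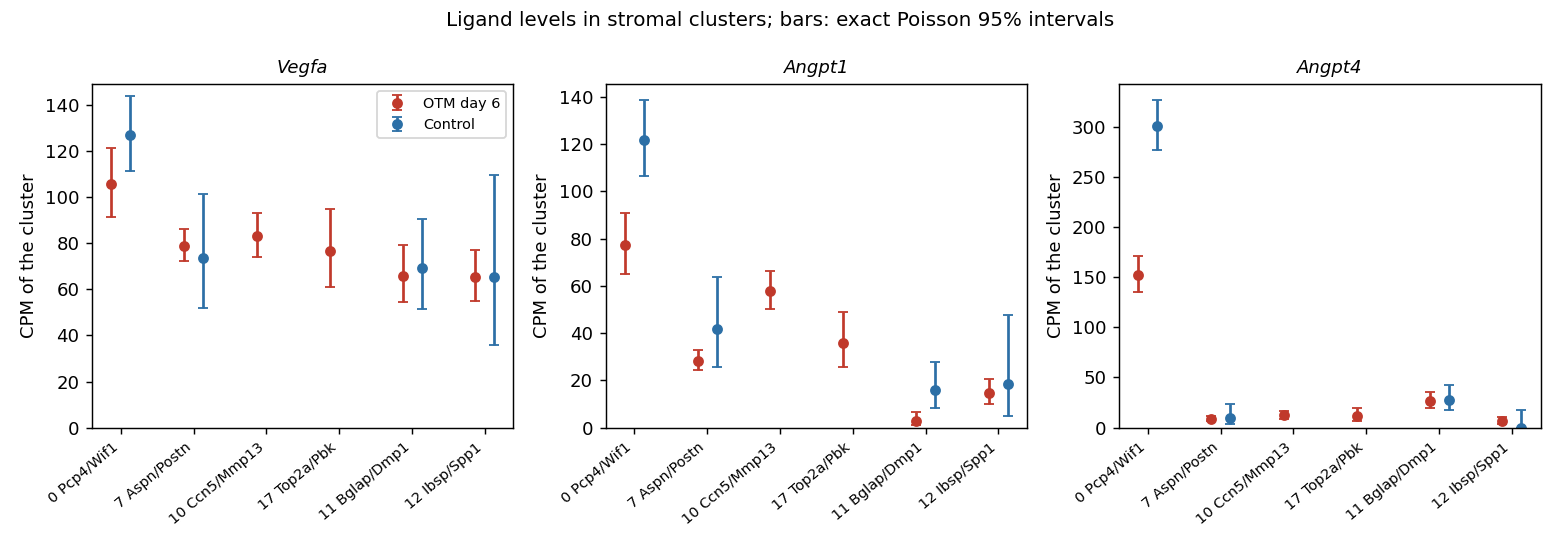
CPM of Vegfa, Angpt1 and Angpt4 in each stromal cluster of the OTM day 6 library (red, left of each pair) and the Control library (blue, right), with exact 95% Poisson intervals; clusters 10 and 17 held no Control cells. Angpt1 (77.1 and 122 CPM) and Angpt4 (152 and 301 CPM) are lower in OTM cells of cluster 0, and the Vegfa intervals overlap in every cluster that both libraries share.

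Among the other sources in the OTM library, Vegfa was at 97 CPM in mural-like cells (78.3 to 119), 59.3 CPM in epithelial-like cells (53.1 to 66.1), 53.0 CPM in macrophage or monocyte-like cells (42.4 to 65.5), 30.4 CPM in neutrophil-like cells (21.1 to 42.5), 17.9 CPM in endothelial-like cells and 13 CPM in osteoclast-like cells. In this order the interval of mural-like cells lay clear of that of epithelial-like cells and overlapped that of the Pcp4 and Wif1 cluster, and every other pair of neighbours overlapped. In epithelial-like cells Vegfa was at 59.3 CPM in the OTM library and 133 CPM in the Control library (56 UMIs in 11 of 20 cells, 36 of them in 3 cells), a log2 ratio of -1.16 (-1.58 to -0.73). Of 4 members measured there, 0 were at least 2-fold higher and 2 lower (Vegfa and Vegfc), where 8.09% and 8.27% of 7813 genes were. In neutrophil-like cells Vegfa had 34 UMIs in the OTM library (30.4 CPM) and 4 in the Control library (10.4 CPM), a log2 ratio of 1.55 (0.06 to 3.50). This class joined a cluster led by Ltf and Mmp8 (51 OTM and 21 Control cells) and one led by Acod1 and Wfdc17 (97 and 12). Ratios in it therefore also compare kinds of neutrophil-like cells. A Vegfa UMI was seen in 24 of 148 OTM neutrophil-like cells (16.2%) and 4 of 33 Control ones (12.1%), and after thinning in 6.16% and 0 of 33 (a floor of 9.09% of cells with a UMI at that depth); the median depths were 5413 and 11322 UMIs. All 4 members measured in that class were at least 2-fold higher (Vegfa, Kdr, Flt1 and Tek) and 0 lower, where 18.1% and 3.34% of 4995 genes were. Kdr, Flt1 and all but 1 of 25 OTM Tek UMIs came from the cells with Pecam1 or Cdh5 UMIs described above. In macrophage or monocyte-like cells the Vegfa ratio was 0.62 (-0.16 to 1.49). Under 6 other settings its interval lay above 0, with ratios of 1.20 to 2.52 on 5 to 10 Control UMIs, while the ratio of means over cells was -0.33. Of 3 measured members 1 was 2-fold higher (Vegfb, 31 and 4 UMIs) and 1 lower (Pgf, 19 and 12 UMIs), both with intervals that held 0, where 18.4% and 7.46% of 7891 genes were.

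Angpt1 (chr15:42424723-42676977), the activating ligand of Tek, was lower in OTM stroma. It was at 36.0 CPM in OTM stromal cells (33.2 to 39.0) and 79.6 CPM in Control ones (70.4 to 89.8), a log2 ratio of -1.14 (-1.35 to -0.93). With classes set cell by cell it turned to 0.14 (-0.33 to 0.64), on 40 Control UMIs, and with each library clustered alone it was -0.15 (-0.52 to 0.23), on 68. In the Pcp4 and Wif1 cluster it was at 77.1 CPM in OTM cells (146 UMIs in 44 of 95 cells) and 122 CPM in Control cells (231 UMIs in 51 of 87 cells), a log2 ratio of -0.66 (-0.97 to -0.36). Single cells of that cluster ran from 0 over a median of 0 to 1008 CPM in the OTM library and from 0 over 52.6 to 1010 CPM in the Control library. The Control cluster held 231 of all 293 Control Angpt1 UMIs (78.8%), and the OTM cluster 146 of 969 (15.1%). In the Aspn and Postn cluster the levels were 28.3 CPM in OTM cells and 41.7 CPM in Control cells (log2 ratio -0.56, -1.21 to 0.17), and in the Bglap and Dmp1 cluster 2.82 CPM (5 UMIs) and 15.9 CPM (12 UMIs, 3 cells). The OTM-only Ccn5 and Mmp13 cluster had 57.7 CPM (50.1 to 66.2), with 61 of its 205 UMIs in 1 cell. Epithelial-like cells had 50.1 CPM in the OTM library, where 1 cell held 113 of 276 UMIs, and 30.9 CPM in the Control library (13 UMIs). Endothelial-like cells had 11 Angpt1 UMIs in 204 OTM cells and 0 in 14 Control cells.

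Of 8 members measured in all stromal cells together, 2 were at least 2-fold higher (Pgf and Angpt2) and 2 lower (Angpt1 and Flt1), where 5.97% and 6.45% of 13425 genes were. Within the Pcp4 and Wif1 cluster 0 of 4 measured members passed 2-fold in either direction, where 4.42% of 12269 genes were higher and 5.85% lower. In the Aspn and Postn cluster 1 of 5 was higher (Vegfb) and 0 lower, where 8.42% and 2.48% of 8708 genes were. In the Bglap and Dmp1 cluster 0 of 4 were higher and 3 lower (Vegfb, Flt1 and Angpt1, each with at most 17 UMIs in either library), where 6.18% and 3.23% of 9245 genes were. In the Ibsp and Spp1 cluster the 1 measured member, Vegfa, passed 2-fold in neither direction, where 10.5% and 6.93% of 5918 genes did. Angpt4, a further Tek ligand in the mouse, is not among the 10 genes and was chosen after its values were seen, because it led the Pcp4 and Wif1 cluster. There it was at 152 CPM in OTM cells (135 to 171) and 301 CPM in Control cells (277 to 327), a log2 ratio of -0.98 (-1.19 to -0.78). Stromal cells held 464 of 476 OTM Angpt4 UMIs (97.5%) and 596 of 600 Control ones (99.3%), and over all cells its log2 ratio was -3 (-3.18 to -2.82). As a leading gene of that cluster it took part in the clustering, so its level there is a description.

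Vegfc (chr8:54077606-54187096), known for lymphatic growth through the receptor Flt4, came from endothelial, epithelial and stromal cells. Endothelial-like cells had 92.4 CPM in the OTM library (84.7 to 100.5; 536 UMIs in 125 of 204 cells) and 116 CPM in the Control library (80 to 163; 33 UMIs in 7 of 14 cells), a log2 ratio of -0.33 (-0.84 to 0.22). Among OTM subclusters it was highest in subcluster 4 (153 CPM, 131 to 177), above the 64.2 to 87.9 CPM of the other 5. S100a8 and Cd52 led that subcluster, and the part of leukocyte transcripts in its levels was not tested. In epithelial-like cells Vegfc was at 28.7 CPM in the OTM library (158 UMIs in 45 of 126 cells) and 123 CPM in the Control library (52 UMIs in 10 of 20 cells), a log2 ratio of -2.11 (-2.57 to -1.63). In stromal cells it was at 14.2 CPM and 21.4 CPM (log2 ratio -0.60, -0.98 to -0.20), and in the Pcp4 and Wif1 cluster alone the interval held 0 (-1.26 to 0.02). The few mast cell or basophil-like cells held 13 Vegfc UMIs in 3 OTM cells and 14 in 2 Control cells.

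Vegfb (chr19:6982473-6987651), a Flt1 ligand, had an all-cell log2 ratio of 0.11 (-0.22 to 0.45). Its highest OTM level among the classes shown in the map of levels was 48.7 CPM in osteoclast-like cells (36.8 to 63.2), in 17 of 24 cells. In the Pcp4 and Wif1 cluster it stood at 28.5 CPM in OTM cells and 24.3 CPM in Control cells. In the Aspn and Postn cluster it had 123 UMIs in the OTM library (18.9 CPM) and 2 in the Control library (3.97 CPM), a log2 ratio of 2.25 (0.37 to 5.31). No Vegfb UMI was seen in 148 OTM or 33 Control neutrophil-like cells, where the floors of 3 UMIs are 2.69 CPM and 7.82 CPM. Vegfd (chrX:164373378-164402650), the other Flt4 ligand, had 65 UMIs in the OTM library and 11 in the Control library, a log2 ratio of -0.10 (-1.04 to 0.97), and 43 and 7 of these lay in stromal cells.

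**Figure D5:**
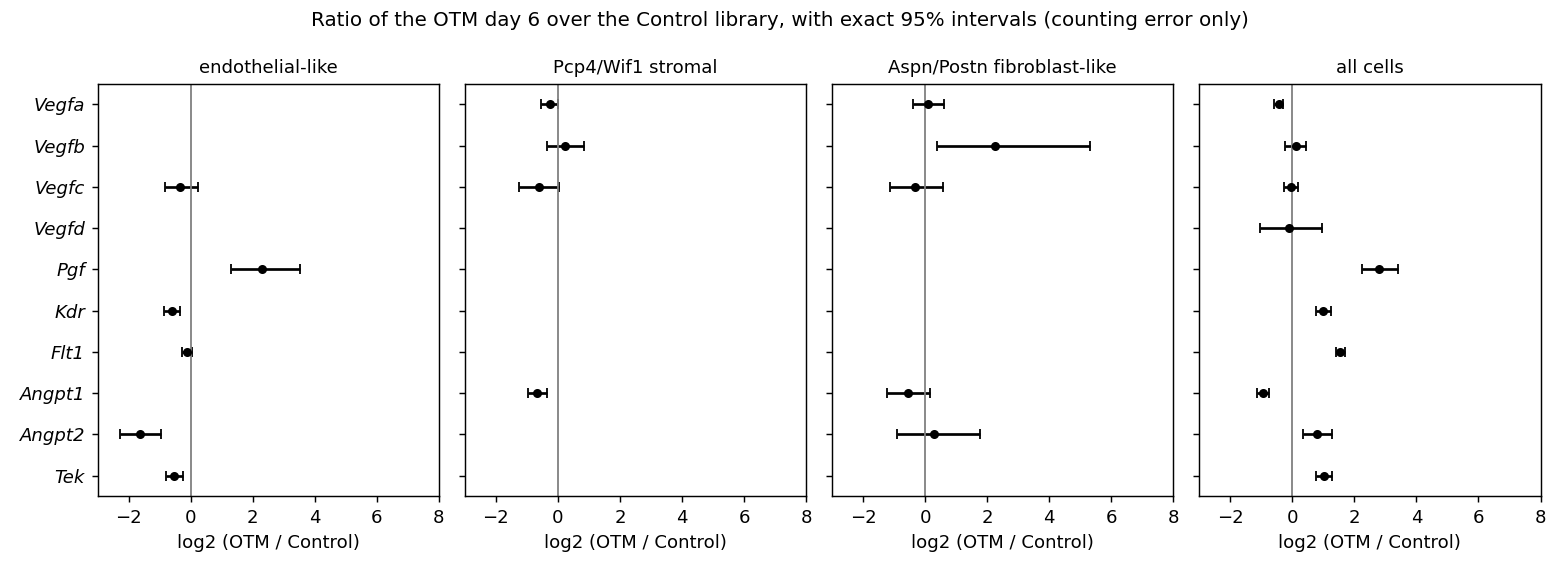
Log2 ratio of the OTM day 6 over the Control library for each measured gene, with exact 95% intervals for counting error, in endothelial-like cells, the Pcp4 and Wif1 stromal cluster, the Aspn and Postn fibroblast-like cluster and all cells. Over all cells Flt1, Kdr and Tek lie above 0 (1.54, 1.00 and 1.03), while in endothelial-like cells Kdr and Tek lie below 0 (-0.61 and -0.54) and the Flt1 interval holds 0.

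The pathway around these genes was described from 8 lists, 5 of them first in the endothelial-like cells, where the shares over all 6865 measured genes that passed 2-fold were 7.41% upwards and 6.06% downwards. Of 8 co-receptors and related receptors, 0 were at least 2-fold higher in OTM cells and 1 lower, with a median log2 ratio of -0.29 (3 of the 8 were among the markers that named the class). The lower one was Flt4, the receptor of Vegfc and Vegfd, at 36.5 CPM in OTM cells and 137 CPM in Control cells (log2 ratio -1.91, -2.41 to -1.38). A single Control cell held 27 of its 39 Control UMIs. That cell had 51 UMIs of Prox1, 5 of Lyve1 and 6 of Pdpn, genes known for lymphatic endothelium, 0 of Flt1 and 25 of Kdr, whereas 2 of 204 OTM cells had at least 5 Prox1 UMIs and both had Flt1. Eng, a TGF-beta co-receptor, was the most abundant at 573 CPM and 761 CPM (log2 ratio -0.41), and Nrp1, which presents Vegfa to Kdr, was at 255 CPM and 444 CPM (log2 ratio -0.80, -1.06 to -0.53). Kit stood at 61.5 CPM and 42.3 CPM (log2 ratio 0.54, -0.28 to 1.51). Of 10 signalling mediators 8 were measured, 0 higher and 1 lower, with a median of 0.02. The lower one was the adaptor Shb, at 64.4 CPM in OTM cells and 134 CPM in Control cells (log2 ratio -1.05, -1.54 to -0.53). Rasip1, a vessel lumen regulator, was at 262 CPM and 247 CPM, and Akt1 and Plcg1, a kinase and a phospholipase below Kdr, had log2 ratios of 0.87 (0.14 to 1.72) and -0.66 (-1.33 to 0.10).

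Of 12 genes of tip cells and VEGF response 11 were measured, 3 at least 2-fold higher and 2 lower (beside the same 7.41% and 6.06% over all genes), with a median of 0.48. Igfbp3 was at 454 CPM in OTM cells and 120 CPM in Control cells (log2 ratio 1.92, 1.44 to 2.45), and the chemokine receptor Cxcr4 at 123 CPM and 31.7 CPM (1.96, 1.03 to 3.09). Esm1 was at 73.8 CPM and 740 CPM (-3.33, -3.57 to -3.08), with the single Control cell named above behind the second value. Of the Notch and arterial genes 7 of 11 were measured, 2 higher and 0 lower, with a median of -0.22. These were the gap junction gene Gja4 (52.9 and 10.6 CPM, 3 Control UMIs; log2 ratio 2.32, 0.76 to 4.61) and the transcription factor Sox17 (130 and 52.9 CPM; 1.30, 0.57 to 2.15), while Efnb2 was at 140 and 211 CPM (-0.60, -0.97 to -0.19) and Notch1 at 164 and 197 CPM (-0.26, -0.65 to 0.15). Of the venous and capillary genes 10 of 11 were measured, 2 higher and 2 lower, with a median of 0.02 (2 of the listed genes were naming markers). The venous regulator Nr2f2 was at 193 CPM in OTM cells and 529 CPM in Control cells (-1.45, -1.70 to -1.20), and the chemokine receptor Ackr1 at 165 and 59.9 CPM (1.47, 0.78 to 2.25). The most abundant, Selp (P-selectin), was at 2147 and 1934 CPM (0.15, 0.03 to 0.28). Gpihbp1, a capillary lipase anchor, had 187 UMIs in OTM cells and 0 in Control cells. Since 12 of 14 Control cells were of subcluster 0, these ratios also compare kinds of endothelial-like cells.

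Genes of the hypoxia response, a known regulator of Vegfa, were described first in stromal cells. Of 14 listed 13 were measured, 1 at least 2-fold higher and 1 lower, where 5.97% and 6.45% of 13425 genes were, with a median log2 ratio of 0.11, and in the Pcp4 and Wif1 cluster 0 of 13 passed 2-fold, where 4.42% of 12269 genes were higher and 5.85% lower. Epas1 (HIF-2 alpha) was at 64.0 CPM in OTM stromal cells and 25 CPM in Control ones (log2 ratio 1.36, 1.04 to 1.70), and the peptide hormone gene Adm at 22.5 and 72.2 CPM (-1.68, -1.92 to -1.44). Ldha, a glycolytic enzyme, was at 290.0 and 268 CPM (0.11, 0.01 to 0.22), and Ankrd37 at 11 and 20.2 CPM (-0.88, -1.29 to -0.46). In the Pcp4 and Wif1 cluster Epas1 was at 23.2 and 17.9 CPM (0.37, -0.31 to 1.06), Adm at 54.4 and 87.1 CPM (-0.68, -1.05 to -0.32) and Pfkfb3, a glycolytic regulator, at 28.0 and 14.8 CPM (0.92, 0.23 to 1.64). In endothelial-like cells 10 were measured, 1 higher (Adm, 180 and 4 UMIs; 1.14, -0.24 to 3.03) and 0 lower, where 7.41% and 6.06% of 6865 genes were, with a median of 0.43, and Hif1a, the most abundant, was at 354 and 257 CPM (0.46, 0.13 to 0.82).

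Of 14 other ligands that act on vessel growth, in either direction, 12 were measured in stromal cells. Among them 3 were at least 2-fold higher and 1 lower, where 5.97% and 6.45% of 13425 genes were, with a median log2 ratio of 0.24. Angptl4 was at 157 CPM in OTM cells and 55 CPM in Control cells (1.51, 1.30 to 1.74), but in the Pcp4 and Wif1 cluster its ratio was 0.37 (0.03 to 0.72). Angptl2 was at 66.2 and 27.6 CPM (1.26, 0.95 to 1.58), and Sema3e at 25.6 and 58.2 CPM (-1.18, -1.43 to -0.93). Ccn1, a matricellular protein and the most abundant, was at 553 and 934 CPM in stromal cells (-0.76, -0.81 to -0.70), but at 261 and 81 CPM in endothelial-like cells (1.69, 1.09 to 2.35). In the Pcp4 and Wif1 cluster 10 were measured, 2 higher (Angptl2 and Hgf) and 0 lower, where 4.42% and 5.85% of 12269 genes were, with a median of 0.06. Hgf, chosen after its values were seen, had 15 and 3 UMIs. Angptl2 was at 54.4 and 21.1 CPM (1.37, 0.83 to 1.93), Fgf2 at 11.1 and 20.6 CPM (-0.89, -1.73 to -0.09) and Ccn1 at 449 and 847 CPM (-0.92, -1.04 to -0.80). In endothelial-like cells 6 were measured, 3 higher and 0 lower, where 7.41% and 6.06% of 6865 genes were, with a median of 1.05: besides Ccn1, Pdgfa (414 and 173 CPM) and Cxcl12 (141 and 49.3 CPM). Of 10 antiangiogenic factors, all were measured in stromal cells, 1 higher and 2 lower (the stromal shares over all genes being 5.97% and 6.45%), with a median of 0.16. Col18a1, the source of endostatin, was at 110 CPM in OTM cells and 14 CPM in Control cells (2.97, 2.55 to 3.42), Thbs1 (thrombospondin 1) at 127 and 431 CPM (-1.77, -1.86 to -1.67), and Sema3a at 7.25 and 20.5 CPM (-1.5, -1.94 to -1.05). In the Pcp4 and Wif1 cluster the ratios of these 3 were 1.94 (1.04 to 2.95), -0.78 (-0.95 to -0.62) and -0.61 (-1.28 to 0.04). Serpinf1 (PEDF), the most abundant, was at 1966 and 2664 CPM (-0.44, -0.47 to -0.40) over all stromal cells, and at 2757 and 2765 CPM (interval -0.06 to 0.05) in the Pcp4 and Wif1 cluster. In that cluster 9 were measured, 3 higher (Col18a1, Sparcl1 and Spry4) and 0 lower, where 4.42% and 5.85% of 12269 genes were, with a median of -0.31. In endothelial-like cells 8 were measured, 4 higher and 0 lower, where 7.41% and 6.06% of 6865 genes were, with a median of 0.39. Besides Thbs2 (204 and 3 UMIs) and Serpinf1 (168 and 1), Col18a1 was at 689 and 310.1 CPM (1.15, 0.85 to 1.47) and the chemokine Cxcl10 at 209 and 42.3 CPM (2.31, 1.5 to 3.26). The fibroblast markers summed to 1027 CPM in OTM endothelial-like cells and 91.6 CPM in Control ones, and their part in these ratios was not tested.

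The ligands resembled other genes less closely than the receptors did. Over the same 29 points, Vegfa ran closest to Ccnd2 (r = 0.85), Vegfb to Prmt5 (0.86), Vegfc to Cgnl1 (0.88), Pgf to St8sia6 (0.85), Angpt1 to Tpm2 (0.88) and Angpt2 to Plxnd1 (0.85). Vegfd had too few UMIs for this description.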

How the data were processed

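The deposited values were UMI counts per gene and barcode, whole numbers with no normalization. The authors made them with Cell Ranger 7.0.1 per the submitters' processing notes, which also name mm10, GRCm38 and Seurat; their roles and the cell filters are not given in the sources used here. Barcodes with at least 200 genes and at most 20% mitochondrial UMIs were kept. With scanpy 1.11.5, both libraries were clustered together (2000 variable genes without the 10 members, 30 components, 15 neighbours, Leiden resolution 1.0) and clusters were named from 18 marker lists. Doublets called by Scrublet (8 OTM and 2 Control cells) were kept. UMIs were summed per class and library and divided by the class total (CPM). A gene counted as measured when equal CPM would give 5 or more expected UMIs in both libraries, and sums under 3 were set to 3 for 2-fold counts and list medians. Thinned shares used 1500 UMIs per cell, leaving out 42 OTM and 49 Control cells. Intervals were tested on simulated data. The members and lists were chosen with earlier results of these data known. From each list, the text names its most abundant gene and up to 3 with the largest absolute ratio; others were chosen after their values were seen. No batch labels separate the libraries further, so library and group cannot be told apart.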

Additional observations from a re-analysis of the deposited data

Results flagged for a closer look

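Vegfa, Vegfb, Kdr, Flt1, Angpt2 and Tek had ratios on opposite sides of 0 in different classes, by their counting intervals; the difference between classes itself was not tested. The log2 ratio of Vegfa was 1.55 in neutrophil-like cells, where 34 OTM and 4 Control UMIs stood behind it, against -0.36 in stromal cells and -1.16 in epithelial-like cells. The clusters joined as neutrophil-like held 51 and 97 OTM cells, but 21 and 12 Control cells. That of Angpt2 was 1.19 in stromal cells and -1.64 in endothelial-like cells, where 18 of 24 Control UMIs came from 1 cell. That of Tek was 2.10 in neutrophil-like cells (25 OTM and 2 Control UMIs, 24 of the OTM ones in 3 cells with Pecam1 or Cdh5 UMIs) and -0.54 in endothelial-like cells. The log2 ratio of Vegfb was 2.09 in fibroblast-like cells (170 OTM and 2 Control UMIs) and -0.95 in osteoblast lineage-like cells (42 and 20), and in erythroid-like cells, with 26 and 0 UMIs, it was at least 2.94-fold higher in the OTM library. Against the floor of 3 UMIs in the class, Kdr was at least 2.15-fold higher in OTM mural-like cells and at least 2.63-fold higher in OTM neutrophil-like cells, and its log2 ratio in endothelial-like cells was -0.61. Flt1 was at least 10.5-fold higher in OTM mural-like and in OTM neutrophil-like cells, and its log2 ratio in stromal cells was -1.12, where 17 of 19 Control UMIs came from 1 cell. All OTM Kdr and Flt1 UMIs of these 2 classes but 3 mural-like Flt1 UMIs lay in cells with Pecam1 or Cdh5 UMIs.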

How the results depend on the processing

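No paired analysis was possible because each group had 1 library. Of 137 values recomputed for 20 results under 11 other settings, 101 stayed within the interval of the value reported, 27 moved outside it and 9 turned the sign of a value whose interval had not held 0; the cause was not tested. Sums over all cells were left out of the settings that change only classes, since these cannot move them. With no filter on cells, the Flt1 log2 ratio in endothelial-like cells was 0.0407. With at least 1000 UMIs, 500 genes and at most 10% mitochondrial UMIs, Vegfa in stromal cells was at -0.16, with an interval that held 0 (-0.36 to 0.04), and Angpt1 at -0.74. With doublets removed before clustering, Vegfa in macrophage or monocyte-like cells was at 2.52 (1.18 to 4.21). With classes set cell by cell from marker scores, which left 86 and 40 Control UMIs, stromal Vegfa was at 0.20 and Angpt1 at 0.14, and endothelial Flt1 at -0.31. With each library clustered alone, 187 OTM and 68 Control cells were called endothelial-like: the difference in their share, 10.4 percentage points as reported, was -6.30, and the ratios were 1.94 for Kdr, 2.18 for Flt1, 1.83 for Tek, 0.24 for Angpt2 and 5.13 for Pgf, with stromal Angpt1 at -0.15 (-0.52 to 0.23). Those 68 Control cells held 121 Kdr, 386 Flt1 and 112 Tek UMIs, beside 137, 369 and 115 in the 14 of the joint clustering. With the members allowed among the variable genes Vegfa in macrophage or monocyte-like cells was at 1.87 (0.39 to 3.66), and as a mean over cells at -0.33.

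The remaining settings were chosen after seeing the data. Without the cell with the most UMIs of the gene in each library, Kdr was at -0.21, Flt1 at 0.12, Tek at -0.22 and Angpt2 at 0.0158 in endothelial-like cells. In endothelial subcluster 0 alone, Flt1 was at 0.43, Tek at -0.10, Angpt2 at -6.33 (1 and 24 UMIs) and Pgf at -0.61 (11 and 5 UMIs). Of the 24 Control Angpt2 UMIs, 18 came from 1 cell, which also held 200 Esm1 UMIs. Another Control cell, with 51 Prox1 UMIs, held 3 of the Angpt2 and 4 of the Pgf UMIs. Stromal Angpt1 was at -0.66 in cluster 0 and -0.56 in cluster 7, and Vegfa at 0.10 in cluster 7. Of 50 values over all cells, 41 stayed and 9 moved on the same side of 0. Depth limits the Control library: its endothelial-like class held 14 cells and 283808 UMIs, and its mural-like class 6 cells and 80441 UMIs.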
